A study of Mus musculus with 3 samples.

Results

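A set of 9 genes that mark or steer tendon, cartilage, and bone lineages was followed through single-cell RNA sequencing libraries made 3 days after burn/tenotomy, an injury that combines a burn on the back with a full cut through the Achilles tendon and in which bone later forms in the soft tissue. The 9 genes were *Scx*, *Mkx*, *Egr2*, *Sox9*, *Runx2*, *Prrx1*, *Twist1*, *Tnmd*, and *Acan*, chosen by name out of the 27998 gene rows of the count matrices, and each symbol matched 1 row. Unsorted cells came from 3 sites, namely bone marrow flushed from both femurs, mononucleated blood cells from a Ficoll gradient, and the injured tendon, where extra bone (heterotopic ossification) forms later, digested with enzymes at a warm temperature. The mice were 10 weeks old, and the methods of the study describe male C57BL/6J animals. All 3 groups had received the injury, none was an uninjured or burn-only control, and the number of mice behind each library was not given in the sources used here.

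The contrast of most interest lay within the tendon injury site, between cells that make fibrillar collagen and all other cells. A cell was called collagen-gated when *Col1a1*, *Col1a2*, *Col3a1*, and *Dcn* together made up at least 1% of its unique molecular identifiers (UMIs, the tags that count original RNA molecules). By this rule 613 of 4780 tendon cells, or 12.8%, were collagen-gated, whereas 0 of 1813 bone marrow cells and 0 of 2146 blood cells were. None of the 9 genes took part in the gate. Of the gated cells, 578 lay in a fibroblast-like cluster of 688 cells and 24 in a mural-like cluster of 109 cells. Outside the gate were 110 cells of the fibroblast-like and 85 of the mural-like cluster. The gate genes were not left out of the clustering, so the overlap is partly built in. Summed fibroblast markers made up 6224 of each 1000000 UMIs in gated cells and 406 in the others. Leukocyte RNA was present as well, since *Ptprc*, the pan-leukocyte surface phosphatase CD45, had a UMI in 6.85% of gated cells, and 16 gated cells formed a cluster led by *Retnlg*, *Lyz2*, and *Cd52*.

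There was 1 library per site. Site, cell preparation, and library therefore cannot be told apart, no test across animals was possible, and every interval given here is a 95% interval for counting error only. The kept cells carried a median of 22893 UMIs in bone marrow, 8362 in blood, and 12178 at the tendon injury site, with 21860254 to 84625100 UMIs in all per library. Shared cell barcodes between libraries numbered 1 to 5. Levels are counts per 1000000 UMIs of the cell group (CPM), with the UMIs of its cells summed. Levels are compared mainly between cell groups for 1 gene. Where genes are set side by side, this is by UMIs, shares of cells, or ratios, and how well each gene was captured was not measured.

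The 9 genes act at different steps. *Scx* (scleraxis, a basic helix-loop-helix factor) marks tendon progenitors, *Mkx* (mohawk, a homeobox factor) and the zinc finger factor *Egr2* act later in tendon collagen gene expression, and *Tnmd* (tenomodulin) is a membrane glycoprotein of differentiated tendon cells. *Prrx1* and *Twist1* are factors of limb and connective tissue mesenchyme, and *Twist1* is known to hold back *Runx2* activity. *Sox9* is the master factor of cartilage and, with *Scx*, marks progenitors of the tendon-to-bone attachment. *Acan* (aggrecan) is the large proteoglycan of cartilage, and *Runx2* drives the osteoblast program. Bone that forms after this injury passes through a cartilage step.

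The promoters of 4 of these genes are shown because the genes fell into contrasting patterns, with *Prrx1*, *Twist1*, and *Tnmd* higher in collagen-gated cells and *Egr2* at the same level inside and outside the gate. RefSeq promoter entries on GRCm38.p6 matched 6 of the 9 symbols, and 5 of them gave a usable window. The fifth, of *Runx2*, had 80 bases and is not printed. *Runx2*, as *Egr2*, was not called higher in collagen-gated cells. Each window below ends at the last base before an annotated transcript start, runs 5′ to 3′ on the strand of the gene, and is in lower case, with motif matches in capitals. The *Egr2* window lies inside the annotated gene, which begins at 67535475 and has 7 transcripts.
*Egr2*, chr10:67537619-67537868, plus strand: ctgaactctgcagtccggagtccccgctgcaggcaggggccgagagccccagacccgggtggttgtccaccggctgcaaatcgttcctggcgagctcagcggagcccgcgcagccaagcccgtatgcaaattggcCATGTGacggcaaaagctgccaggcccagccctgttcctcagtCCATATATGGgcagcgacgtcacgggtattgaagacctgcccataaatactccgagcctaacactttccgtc
*Twist1*, chr12:33957421-33957670, plus strand: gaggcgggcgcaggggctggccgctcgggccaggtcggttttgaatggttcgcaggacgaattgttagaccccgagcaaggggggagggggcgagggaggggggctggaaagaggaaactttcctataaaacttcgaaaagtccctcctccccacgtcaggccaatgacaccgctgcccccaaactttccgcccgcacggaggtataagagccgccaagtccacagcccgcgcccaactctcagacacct
*Prrx1*, chr1:163313711-163313900, minus strand: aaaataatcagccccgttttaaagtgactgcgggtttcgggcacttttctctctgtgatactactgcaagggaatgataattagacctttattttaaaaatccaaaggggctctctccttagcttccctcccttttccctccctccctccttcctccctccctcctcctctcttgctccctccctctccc
*Tnmd*, chrX:133850758-133850979, plus strand: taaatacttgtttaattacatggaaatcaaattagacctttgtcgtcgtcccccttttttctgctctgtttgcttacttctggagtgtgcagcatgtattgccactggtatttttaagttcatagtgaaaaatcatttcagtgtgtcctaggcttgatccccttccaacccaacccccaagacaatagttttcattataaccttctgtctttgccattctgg
In all, 5 motifs were searched on both strands, namely the E-box CANNTG bound by basic helix-loop-helix factors such as *Scx* and *Twist1*, the RUNX motif ACCACA, the EGR motif GCGNGGGCG, the SOX motif ACAATG, and the CArG box of serum response factor, which was added after the sequences had been seen. The *Egr2* window held an E-box 115 bases and a CArG box 72 bases before its end. The windows of *Twist1* (250 bases), *Tnmd* (222 bases), and *Prrx1* (190 bases) held 0 matches, as did the *Runx2* window of 80 bases. Among 32817 promoters cut to 250 bases, 66.2% held an E-box, 14% the RUNX motif, 4.70% the EGR motif, 10.7% the SOX motif, and 1.47% a CArG box. The E-box share was 62.0% at 222 bases, 56.1% at 190, and 28.2% at 80. A match is a string of letters and not a shown binding site.

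Of the 9 genes, 6 were higher in the collagen-gated cells, where a gene was called higher when it differed at least 2-fold with an interval that excluded no difference, and had at least 20 UMIs over both groups. Of all 15272 genes compared this way, 15.5% were higher and 22.3% were lower. *Ptprc* had a UMI in 73.6% of the other tendon cells, so by cell number the contrast was largely with leukocytes. By UMIs, which set the levels, other cells weighed more. Of 62902443 UMIs in the comparison group, keratinocyte-like cells held 7845108 and a cluster of 260 endothelial-like cells 7949197. Ungated cells of the fibroblast-like cluster held 5174998. The median log2 ratio was 2.83 over the 9 genes and −0.02 over all genes. *Tnmd*, *Acan*, *Mkx*, *Twist1*, *Prrx1*, and *Scx* made up the higher group, and *Sox9*, *Runx2*, and *Egr2* did not reach 2-fold.

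**Figure D1:**
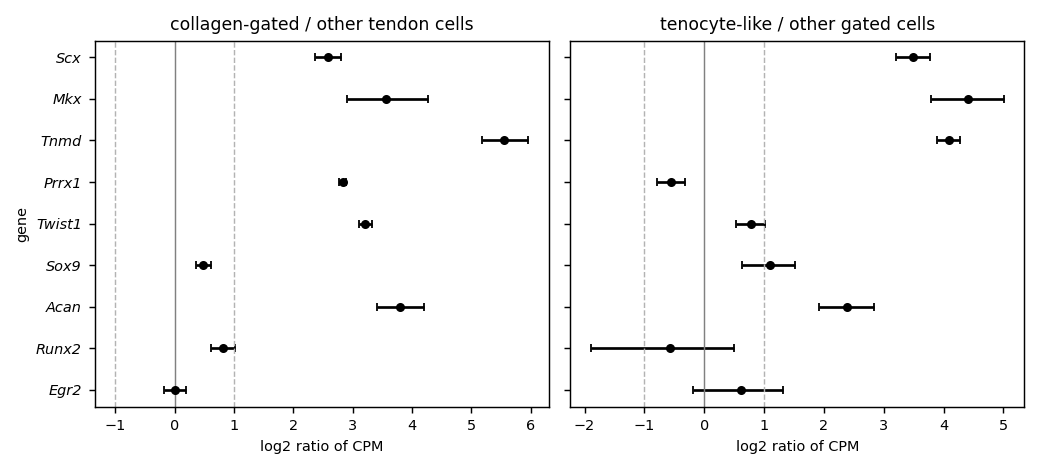
Log2 ratio of CPM for each gene with its 95% counting interval, on the left for collagen-gated cells over other tendon cells and on the right for tenocyte-like cells over other gated cells (dashed lines, 2-fold). *Tnmd* has the largest ratio on the left at 5.55 and *Mkx* on the right at 4.40, and *Egr2* lies at 0.01 on the left.

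Among the tendon genes, *Tnmd* separated the groups most. It had 971 UMIs in the 613 gated cells and 60 in the 4167 others, which is 44.7 against 0.95 CPM, a log2 ratio of 5.55 (interval 5.17 to 5.95). Only 29 of the 15272 genes had a higher ratio. *Mkx* was the sparsest gene, with 98 UMIs against 24, or 4.51 against 0.38 CPM and a log2 ratio of 3.56 (2.91 to 4.27). *Scx* had 521 UMIs against 253, or 24.0 against 4.02 CPM, and a log2 ratio of 2.58 (2.36 to 2.80). *Egr2*, the third tendon factor, stood at 15.8 CPM in gated cells (343 UMIs) and 15.7 in the others (989 UMIs), with a log2 ratio of 0.01 (−0.18 to 0.18). For *Egr2* a 2-fold difference in either direction lay outside the counting interval.

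Both mesenchymal factors were abundant in the gate. *Prrx1* had 6852 UMIs against 2793, or 315 against 44.4 CPM, and *Twist1* had 2693 against 842, or 124 against 13.4. Their log2 ratios were 2.83 (2.76 to 2.89) and 3.21 (3.10 to 3.32). Much of the remaining *Prrx1* came from cells close to the gate. After the ungated cells of the fibroblast-like and mural-like clusters were set aside, the 3972 other cells held *Prrx1* at 4.41 and *Twist1* at 1.30 CPM, and the *Prrx1* log2 ratio became 6.16. The ungated fibroblast-like and mural-like cells held *Prrx1* at 334 and 366 CPM. They were set aside after seeing the data, so the ratio had to rise.

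The cartilage and bone genes gave unequal pictures. *Acan* had 318 UMIs in gated cells and 66 in the others, or 14.6 against 1.05 CPM, a log2 ratio of 3.80 (3.42 to 4.21). *Sox9* stood at 32.7 CPM in gated cells (710 UMIs) and 23.4 in the others (1470 UMIs), a log2 ratio of 0.48 (0.35 to 0.61). Most *Sox9* UMIs of the comparison group lay in keratinocyte-like cells, and without the keratinocyte-like and muscle-like clusters the log2 ratio was 2.81. These clusters were the highest for *Sox9* and were set aside after seeing the data, so the ratio had to rise. *Runx2* stood at 14.3 against 8.12 CPM (311 and 511 UMIs), a log2 ratio of 0.82 (0.61 to 1.02).

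Cell by cell, *Prrx1* and *Twist1* were widespread in the gate, and each of the other genes was detected in a much smaller share of cells. Gated cells were deeper than the others, with a median of 32425 UMIs against 11275, so shares of cells were compared after every cell had been thinned to 5000 UMIs, which left 575 of 613 gated and 3242 of 4167 other cells and dropped the shallower ones. *Prrx1* was then detected in 66.3% of gated and 5.15% of other cells, and *Twist1* in 43.1% and 2.44%. *Tnmd* was detected in 10.4% against 0.34%, *Scx* in 6.96% against 0.71%, *Acan* in 4.17% against 0.15%, and *Mkx* in 2.61% against 0.12%. *Sox9* was detected in 12.0% against 3.64%, *Egr2* in 9.74% against 7.99%, and *Runx2* in 5.74% against 3.98%. At a fixed depth a gene with a lower level is detected in fewer cells, so these shares follow level as well as restriction. Before thinning, 93.5% of gated cells had a *Prrx1* UMI, 80.1% a *Twist1* UMI, and 16.5% a *Scx* UMI. For comparison, the myeloid cluster led by *Arg1*, *Ppbp*, and *F7* (895 cells, median 12887 UMIs) showed *Prrx1* in 6 and *Scx* in 1 of 780 thinned cells. The *Prrx1* level there was 0.85 CPM. Over the leukocyte clusters of the tendon library it ran from 0 in basophil/mast cell-like cells to 4.88 CPM in dendritic cell-like cells. Free RNA was not measured.

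The spread of the UMIs over the gated cells was uneven as well. The 61 gated cells richest in a gene, held 91.7% of the *Scx*, 99.0% of the *Mkx*, 90.8% of the *Tnmd*, and 100% of the *Acan* UMIs. For *Prrx1* and *Twist1* they held 34.3% and 34.8%. *Egr2*, *Sox9*, and *Runx2* lay between, at 54.5%, 60.6%, and 65.3%. Genes with fewer UMIs reach a higher share in a fixed number of cells, so these values describe sparsity as well as restriction. Of the 575 thinned gated cells, 67 had a UMI of none of the 9 genes, 233 of 1, 177 of 2, 68 of 3, 17 of 4, 11 of 5, and 2 of 6.

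Clustering of the gated cells with the 9 genes and the lineage lists left out of the variable genes gave 8 clusters. A cluster of 37 cells was tenocyte-like, with all 8 tenocyte markers detected (*Fmod*, *Thbs4*, *Kera*, *Comp*, *Chad*, *Cilp2*, *Angptl7*, and *Col12a1*). The summed level of these markers was 13620 CPM in that cluster and 108 to 2435 in the other 7 gated clusters. None of the 9 genes was among the markers. The cluster was led by *Mmp13*, *Chad*, *Kera*, *Angptl7*, and *Cilp2*. Of the 9 genes, 5 were higher in the tenocyte-like cells than in the other 576 gated cells, and 0 were lower, against 5.43% higher and 12.3% lower among 12331 genes compared.

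*Mkx* was the most concentrated. Its 41 UMIs in 21 of the 37 tenocyte-like cells stood against 57 UMIs in the other gated cells, or 57.3 against 2.71 CPM, a log2 ratio of 4.40 (3.79 to 5.01). *Tnmd* was detected in 33 of the 37 cells and reached 498 CPM against 29.3 (356 and 615 UMIs), a log2 ratio of 4.09 (3.90 to 4.28). *Scx* was detected in 25 of them and reached 201 against 17.9 (144 and 377 UMIs), a log2 ratio of 3.49 (3.20 to 3.77). These 3 genes ranked 31st, 36th, and 65th of 12331 by ratio. The cartilage proteoglycan *Acan* reached 67.1 against 12.9 CPM (48 and 270 UMIs), a log2 ratio of 2.38 (1.91 to 2.83), and was carried by 11 of the 37 cells.

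The remaining genes differed less between tenocyte-like and other gated cells. *Sox9* stood at 67.1 against 31.5 CPM, a log2 ratio of 1.09 (0.64 to 1.51), and dropped under 2-fold without its top cell (0.99), without cells that had a *Ptprc* UMI (0.94), and with every cell weighted equally (0.64). *Twist1* stood at 208 CPM in the tenocyte-like cells, a log2 ratio of 0.78 (0.53 to 1.02). *Prrx1* was present in 34 of the 37 cells at 217 CPM and had a negative log2 ratio of −0.56 (−0.80 to −0.33). *Runx2*, with 7 UMIs in these cells, had a log2 ratio of −0.56 (−1.89 to 0.50), which leaves a 2-fold difference in the lower direction inside the interval. *Egr2* stood at 23.8 against 15.5 CPM (17 and 326 UMIs), a log2 ratio of 0.62 (−0.18 to 1.32).

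The other gated clusters split the 9 genes further. Clusters are called by their leading gene, with *Hist1h1b* for a group with high histone and mitotic genes (183 cells), *Cxcl13* (135 cells, also *Apod* and *C3*), *Fmo2* (92 cells, also *Sfrp4* and *Gdf10*), *C1qtnf3* (74 cells, also the interferon-response genes *Ifit3* and *Ifi44*), *Grem1* (52 cells, also *Crabp1*), the mural-like group (24 cells, led by *Actg2*, *Rgs5*, and *Myh11*), and *Retnlg* (16 cells).

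**Figure D2:**
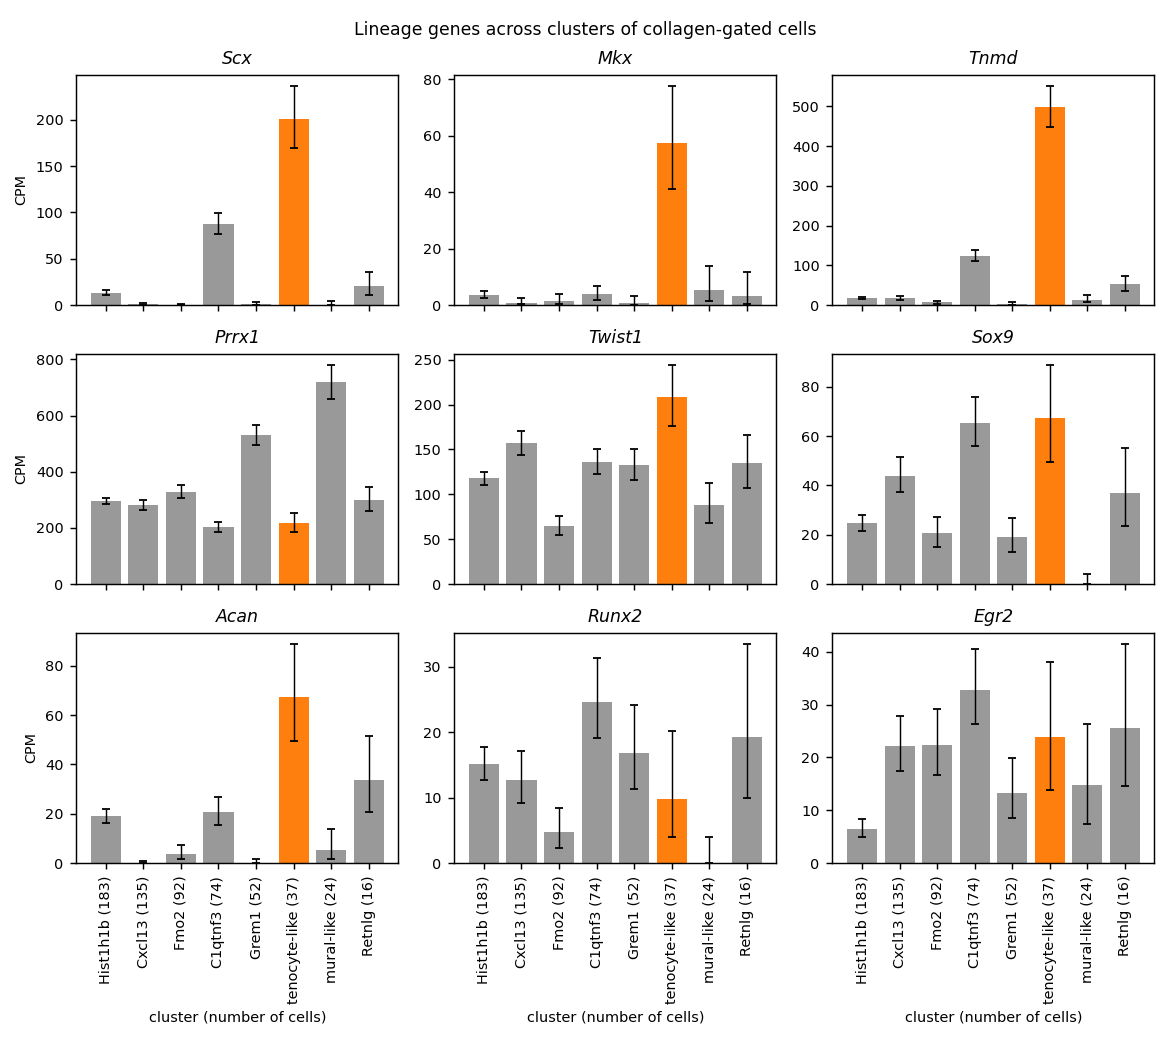
CPM of the 9 genes in each of the 8 clusters of collagen-gated cells, named by leading gene or marker-based name with the number of cells, with 95% counting intervals (orange, tenocyte-like). *Scx*, *Mkx*, *Tnmd*, and *Acan* are highest in the tenocyte-like bar, whereas *Prrx1* is highest in the mural-like bar at 718.

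*Scx* had a second, lower site of expression. It reached 87.3 CPM (234 UMIs) in the *C1qtnf3* cluster, less than the 201 of the tenocyte-like cells with intervals that did not overlap, and 20.8 in the *Retnlg* cluster and 13.4 in the *Hist1h1b* cluster. It was nearly missing from the rest, with 2 UMIs in the 135 cells of the *Cxcl13* cluster, 1 in the *Grem1* cluster, and 0 in both the *Fmo2* and the mural-like cluster. *Tnmd* followed the same order at the top, with 498 CPM in tenocyte-like cells and 124 in the *C1qtnf3* cluster. In that cluster 111 of the 333 *Tnmd* UMIs came from 1 cell. *Mkx* did not share the second site, at 3.73 CPM in the *C1qtnf3* cluster (10 UMIs), inside the range of 0.58 to 5.34 of the clusters other than the tenocyte-like one.

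*Prrx1* and *Twist1* ran through every gated cluster. *Prrx1* was lowest in the *C1qtnf3* cluster at 202 and in tenocyte-like cells at 217 CPM, with overlapping intervals, stood at 280 to 329 in 4 clusters, and was highest in the *Grem1* cluster at 530 and the mural-like cluster at 718. *Twist1* ran from 64.6 in the *Fmo2* cluster and 88.1 in mural-like cells to 157 in the *Cxcl13* cluster and 208 in tenocyte-like cells. The mural-like cells, highest for *Prrx1*, were thus among the lowest for *Twist1*.

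*Sox9* was near its highest level in the tenocyte-like cells at 67.1 and the *C1qtnf3* cluster at 65.3 CPM, 2 values that did not differ beyond counting error, and had 0 UMIs in the 24 mural-like cells. *Acan* was at 0 in the *Cxcl13* and *Grem1* clusters, at 20.5 CPM in the *C1qtnf3* cluster (55 UMIs), and at 19.1 CPM in the *Hist1h1b* cluster, which held 181 of its 318 gated UMIs. *Runx2* ran from 0 in mural-like cells and 4.71 CPM in the *Fmo2* cluster to 24.6 in the *C1qtnf3* cluster (66 UMIs). *Egr2* ran from 6.42 in the *Hist1h1b* cluster to 32.8 in the *C1qtnf3* cluster.

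Detection in the same cells was counted over all 575 thinned gated cells, tenocyte-like cells included. Of 40 gated cells with a *Scx* UMI, 18 (45.0%) also had *Tnmd*, against 42 of 535 without *Scx* (7.85%). *Acan* was found in 11 of the 40 and 13 of the 535, and *Mkx* in 7 of the 40 and 8 of the 535. Their counting intervals did not overlap in any of the 3 pairs. *Runx2* was found in 1 of the 40 *Scx* cells (2.5%, exact interval 0.06 to 13.2%) and in 32 of the 535 others (5.98%), values that cannot be separated at this number of cells. *Sox9* was found in 9 of the 40 (22.5%, interval 10.8 to 38.5%) and 60 of the 535 (11.2%). *Mkx* and *Acan* were found together in 0 of 15 *Mkx* cells, so a true share as high as 20% remains possible. *Prrx1* was found in 65.7% of 248 cells with *Twist1* and 66.7% of 327 without. These cells come from 1 library and are not replicates of the injury.

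The level of the collagen genes themselves ordered some of the 9 genes and not others. From cells with 1 to 2% of collagen-gate UMIs (251 cells) through 2 to 5% (315 cells) to 5% or more (47 cells), *Scx* went from 15 to 30.5 to 51.6 CPM, *Tnmd* from 16.5 to 63.2 to 146, and *Twist1* from 102 to 141 to 184. *Prrx1* stood at 313, 325, and 261, *Sox9* at 30.8, 34.3, and 36.4, and *Acan* at 16.5, 13.2, and 9.31 over the same bins. The bins also differed in depth, with a median of 41232 UMIs at 1 to 2%, 29768 at 2 to 5%, and 25636 in the 45 cells at 5 to 10%. The cell cycle gene *Mki67* stood at 140, 117, and 26.0 CPM in these bins. The part of depth and cluster make-up in the order was not tested. Part of the order came with the tenocyte-like cells. Without them *Scx* stood at 13.2, 22.3, and 27.0 and *Tnmd* at 10.1, 43.6, and 92.1 CPM. A single cell held 71 of the 99 *Tnmd* UMIs in that last value, which was 26.0 without it, and *Scx* in the same bin was 8.37 without its own top cell. For *Acan*, 10 of the 11 UMIs in the top bin came from 1 cell, and the value was 0.85 without it.

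**Figure D3:**
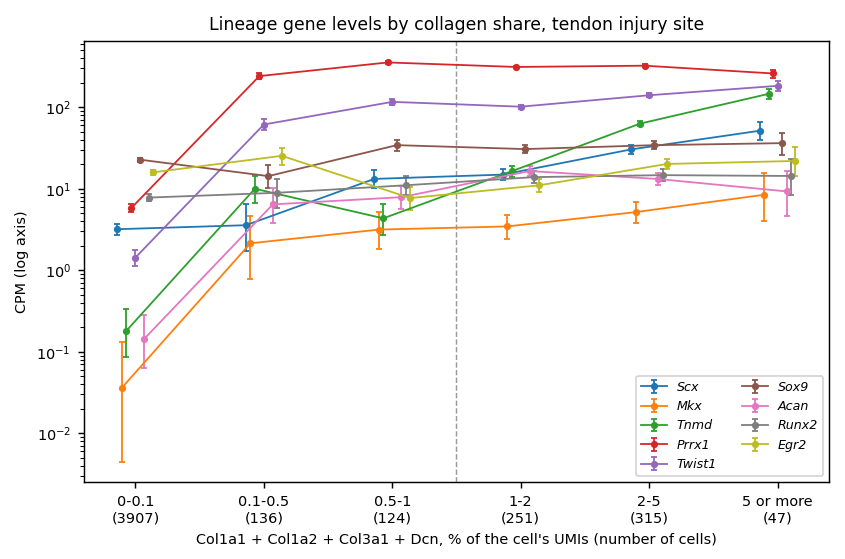
CPM (log axis) of the 9 genes over bins of the share of a cell's UMIs from the 4 gate genes, with the number of cells per bin and 95% counting intervals (dashed line, gate at 1%). *Tnmd* goes from 0.18 in the lowest bin to 146 in the highest, and *Prrx1* stays between 242 and 356 in every bin from 0.1% up.

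Cells just outside the gate resembled those inside for the mesenchymal genes. The 124 cells at 0.5 to 1% held *Prrx1* at 356 and *Twist1* at 117 CPM, and *Tnmd* at 4.35 and *Mkx* at 3.16. The 110 ungated cells of the fibroblast-like cluster held *Prrx1* at 334, *Twist1* at 125, *Scx* at 16.0, *Sox9* at 39.8, *Acan* at 8.89, and *Tnmd* at 6.96 CPM. Between all gated cells and these 110 cells, *Tnmd* differed more than *Prrx1*, *Twist1*, or *Sox9* did, and the gated side includes the tenocyte-like cells. Without the tenocyte-like cells, *Tnmd* stood at 10.1 CPM in the 1 to 2% bin. It stood at 10.0 CPM in the 136 ungated cells at 0.1 to 0.5%, where 1 cell held 15 of the 28 UMIs.

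**Figure D4:**
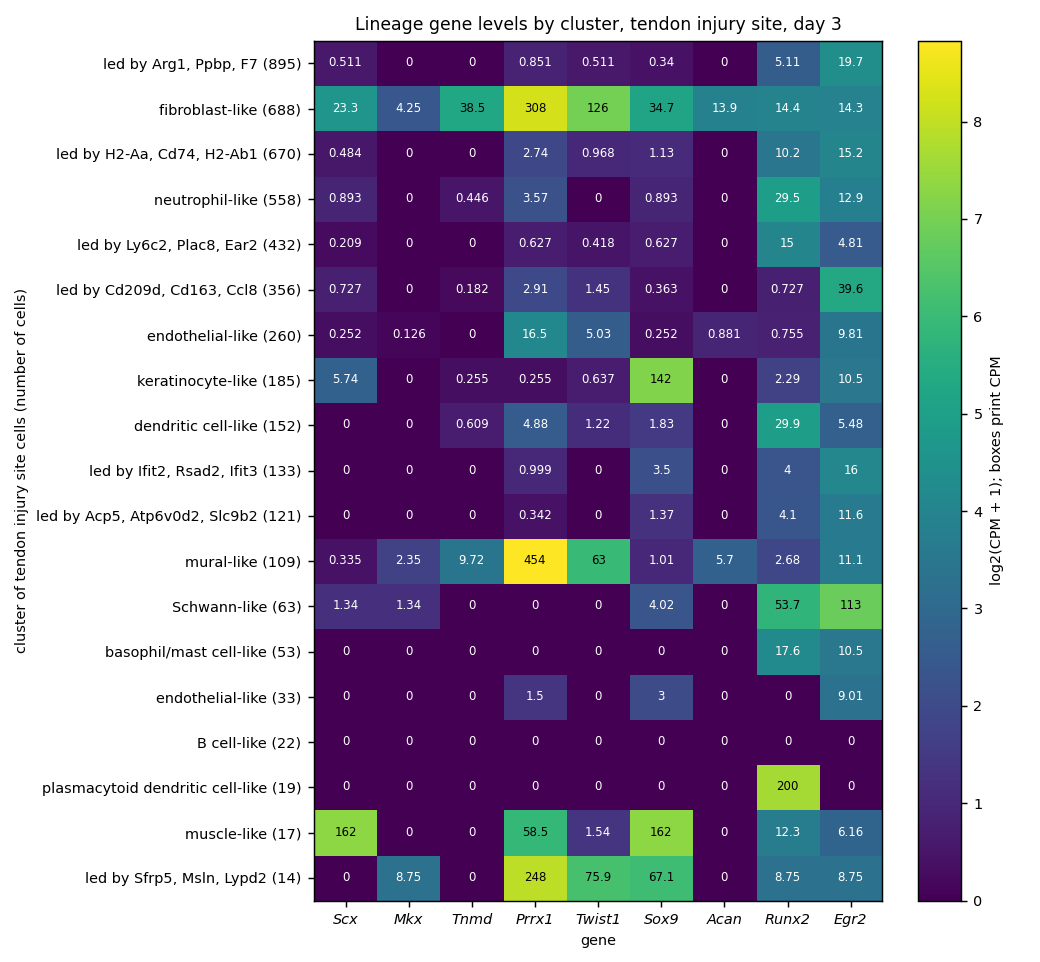
Level of each gene in the 19 clusters of the tendon injury site, coloured by log2(CPM + 1) and printed in CPM, with the number of cells. *Prrx1* is highest in the fibroblast-like (308) and mural-like (454) clusters, *Sox9* in the muscle-like (162) and keratinocyte-like (142) clusters, and *Egr2* in the Schwann-like cluster (113).

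Outside the gate, *Sox9* was found mainly in keratinocyte-like cells. The 185 keratinocyte-like cells held 1111 of its 2180 UMIs in the library, or 142 CPM, with a UMI in 128 cells and in 42.8% of thinned cells. *Sox9* is known from hair follicle epithelium, and the whole injury site was digested. *Scx* in the same cells was at 5.74 CPM. A muscle-like cluster of 17 cells held 105 UMIs of *Sox9*, in 10 cells, and 105 of *Scx*, in 12 cells, each at 162 CPM (interval 132 to 196). That *Scx* level overlapped the interval of the tenocyte-like cells (170 to 237). *Tnmd*, *Mkx*, and *Acan* had 0 UMIs in the muscle-like cells, and *Prrx1* had 38. *Sox9* was at 0.25 CPM in 260 endothelial-like cells and 1.01 in 109 mural-like cells.

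*Prrx1* and *Twist1* followed connective tissue and vessel walls. *Prrx1* reached 454 CPM in the mural-like cluster, in 82.8% of thinned cells, 308 in the fibroblast-like cluster, and 16.5 in endothelial-like cells, and it had 0 UMIs in 63 Schwann-like cells and 2 in 185 keratinocyte-like cells. *Twist1* reached 126, 63.0, and 5.03 CPM in the fibroblast-like, mural-like, and endothelial-like clusters. Over the 3972 cells outside the fibroblast-like and mural-like clusters and the gate, *Tnmd* had 5 UMIs, *Acan* 7, and *Mkx* 2.

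*Egr2* had a different map. It was highest in Schwann-like cells at 113 CPM (84 UMIs in 34 of 63 cells), where it is known as Krox20, the factor of peripheral myelination. The macrophage-gene cluster led by *Cd209d*, *Cd163*, and *Ccl8* (356 cells) stood at 39.6, and the cluster led by *Arg1*, *Ppbp*, and *F7* (895 cells) at 19.7 CPM. All clusters with over 100 cells had *Egr2*, from 4.81 CPM upward. *Runx2* was spread over skeletal and leukocyte clusters. The fibroblast-like cluster held 374 of its 822 tendon UMIs, more than any other cluster, at 14.4 CPM. Smaller clusters had higher levels, with 200 CPM in 19 plasmacytoid dendritic cell-like cells (26 UMIs), 53.7 in Schwann-like cells (40 UMIs, 10 of them in 1 cell), 29.9 in dendritic cell-like cells, and 29.5 in neutrophil-like cells. The clusters led by *Arg1* (895 cells) and *Cd209d* (356 cells) stood lower, at 5.11 and 0.73.

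Bone marrow and blood offered a contrast. Of the 9 genes, 8 were higher at the tendon injury site than in blood, beside 35.2% of 15767 genes compared. Against bone marrow 8 were higher and 1 was lower, beside 40.1% and 12.1% of 15878 genes. The share of all genes with 0 UMIs in both libraries was not counted. *Mkx*, *Sox9*, *Prrx1*, *Twist1*, *Tnmd*, and *Acan* had 0 UMIs in both libraries, and *Scx* had 1 in bone marrow, and a count of 0 allows up to 0.165% of bone marrow and 0.140% of blood cells with a UMI. No cell with a *Prrx1* UMI was therefore detected in the flushed marrow. *Egr2* had 1 UMI in bone marrow and 10 in blood against 1332 at the tendon injury site, or 0.02, 0.46, and 15.7 CPM. *Egr1*, an immediate-early relative that also acts in tendon, moved the same way, at 0.85, 8.37, and 429 CPM. The tendon cells alone were digested with warm enzyme, a step in which immediate-early genes can be induced, and site and preparation cannot be told apart for these genes.

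**Figure D5:**
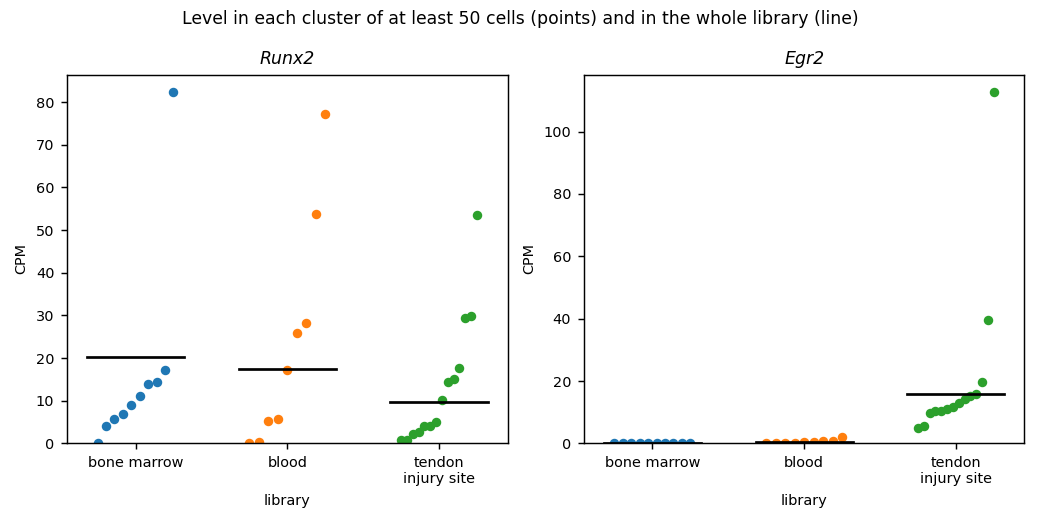
Levels of *Runx2* and *Egr2* in CPM in each cluster of at least 50 cells (points) and in the whole library (line), shown for marrow, blood, and tendon. *Egr2* reaches 113 in 1 tendon cluster and is close to 0 throughout bone marrow and blood, and *Runx2* has clusters above 50 in every library.

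*Runx2* was the only one of the 9 genes with a substantial signal in all 3 libraries. It had 980 UMIs in bone marrow (20.2 CPM), 383 in blood (17.5), and 822 at the tendon injury site (9.71), and the tendon level was lower than that of marrow with a log2 ratio of −1.06 (−1.19 to −0.92). In marrow, 367 of the 980 UMIs lay in 39 plasmacytoid dendritic cell-like cells, at 792 CPM (713 to 877) and in 92.3% of thinned cells. The log2 ratio of −1.06 lies close to the 2-fold limit, so the call of lower depends on these cells, which are 2.15% of the marrow cells. The ratio without them was not calculated. Basophil/mast cell-like cells followed at 82.4 CPM (60 cells, 153 UMIs), and the other marrow clusters of at least 50 cells lay at 17.3 or less. In blood the highest levels were 80.8 in basophil/mast cell-like cells (34 cells), 77.2 in an unnamed cluster led by *Cd300e* and *Eno3* (117 cells), and 53.8 in NK cell-like cells (139 cells). The collagen-gated tendon cells, at 14.3 CPM, were below each of these groups.

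Lists of related genes, drawn up with earlier results of these data known, placed the 9 genes among their neighbours. Of 55 listed genes, 54 were in the matrices and 41 had enough UMIs to compare. In collagen-gated cells 22 of the 41 were higher and 4 lower, with a median log2 ratio of 1.19, against the 15.5% and 22.3% of all genes. Limb and mesenchymal factors were higher in 11 of 13 cases, among them *Prrx2* (4.49), *Osr1* (4.01), *Osr2* (3.74), *Pitx1* (3.67), and *Tbx15* (3.54), and *Meox1* was lower (−1.21). Of 6 tenogenic factors 4 were higher, among them *Nfatc4* (3.41), *Six2* (2.60), and *Smad3* (1.03), *Tgif1* was lower (−1.49), and *Egr1* stood at 0.54.

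Cartilage and bone lists were sparser. In the chondrogenic list 3 of 5 compared genes were higher, namely *Sox5* (2.06), *Hapln1* (2.15), and *Col11a2* (1.19), whereas *Col2a1*, the main cartilage collagen, had 8 UMIs in gated and 2 in other cells and was not compared. In the osteogenic list 2 of 6 were higher, alkaline phosphatase *Alpl* (3.27) and *Postn* (3.98). The osteoblast factor *Sp7* had 1 UMI in each group, and *Bglap*, the osteocalcin gene, had 12 against 17. Among 11 partners and inhibitors of the 9 genes, *Id4* (1.52) and *Zfp521* (2.03) were higher, *Id1* (−1.56) and *Id2* (−1.26) were lower, shares near those of all genes (15.5% and 22.3%), and *Cbfb*, the partner of *Runx2*, stood at 0.16.

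The same lists were compared within the gate. Of 39 listed genes compared with other gated cells, 11 were higher and 5 lower, beside 5.43% higher and 12.3% lower among all genes, so the share of lower genes was near that of all genes. By list, 3 of 5 chondrogenic genes, 5 of 13 limb and mesenchymal factors, and 3 of 11 partners and inhibitors were higher, and 0 of 6 tenogenic factors and 0 of 4 osteogenic genes were. *Col11a2* reached 57.3 CPM (41 UMIs in 12 cells, log2 ratio 6.77), *Hapln1* 19.6 (14 UMIs in 6 cells, 5.51), and *Sox6*, a partner of *Sox9*, 15.4 (11 UMIs in 9 cells, 3.88). The other higher genes were *Meox1*, *Id2*, *Id3*, *Id1*, *Hoxa11*, *Pitx1*, *Tcf4*, and *Hoxc10*, with log2 ratios from 1.07 to 2.09. *Osr1*, *Osr2*, and *Alpl* had 0 UMIs in the tenocyte-like cells against 639, 391, and 264 in the other gated cells, and *Twist2* (−1.19) and *Postn* (−3.80) were lower.

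The genes whose levels most resembled the 9 were sought over the 33 clusters of at least 50 cells in the 3 libraries, by Pearson's r of log2(CPM + 1) among 12679 genes. These clusters share libraries, most of them hold no skeletal cells, and the 37 tenocyte-like cells are not a cluster of their own there but part of larger ones. Clusters under 50 cells took no part. Among these were the plasmacytoid dendritic cell-like cells, where *Runx2* was highest, and the muscle-like cells, with *Scx* at 162 CPM. *Prrx1* was closest to *Ccl11* (0.976), *Twist1* (0.969), and *Adamts2* (0.968), and *Twist1* to *Scara3*, *Nfatc4*, and *Kcne4*. *Scx* was closest to *Slc1a3*, *Bnc2*, and *Gm15867* (0.941 to 0.954), *Tnmd* to *Larp6*, *Hoxa11*, and *Osr1*, and *Mkx* to *Mmp16*, *Olfml1*, and *Shc2*. *Osr1*, close to *Tnmd* over these clusters, had 0 UMIs in the tenocyte-like cells where *Tnmd* was highest. *Egr2* was closest to *Pmp22*, a myelin gene (0.929), and to the immediate-early genes *Fosb* (0.926) and *Egr1* (0.920). *Sox9* was closest to *Echdc2*, *Aldh1a3*, and *Spink6*. *Runx2* had the weakest match, 0.729 with its own antisense gene *Runx2os1*.

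Several of the 9 genes overlap other genes, and the use of strand in counting was not stated in the sources used here. In GENCODE M21 on GRCm38, *Scx* (chromosome 15, 76457452 to 76459458, plus strand) lies inside *Bop1* on the opposite strand. *Bop1* was at 35.8 CPM in gated and 27.3 in other cells, and at 44.7 in tenocyte-like cells where *Scx* was at 201. *Runx2* (chromosome 17, 44495987 to 44814797, minus strand) is overlapped on the opposite strand by *Supt3*, at 12.4 CPM in gated and 8.16 in other cells, and by *Runx2os1*, at 6.95 and 2.27. *Prrx1* (chromosome 1, 163245119 to 163313710, minus strand) is overlapped on the same strand by *Gm26523*, at 10.7 and 0.86. How reads from such overlaps were assigned was not tested. *Mkx* (chromosome 18, 6934518 to 7004780, minus) is overlapped on the same strand by *AC148004.2*, which has no row in the count matrices. The remaining genes are *Egr2* (chromosome 10, 67535475 to 67542188, plus), *Sox9* (chromosome 11, 112782224 to 112787760, plus), *Twist1* (chromosome 12, 33957671 to 33959829, plus), *Tnmd* (chromosome X, 133850980 to 133865577, plus), and *Acan* (chromosome 7, 79053483 to 79115099, plus).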

How the data were processed

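Single-cell libraries (10x 3′ v3) from marrow, blood, and injured tendon were used, 1 per site. The deposited values are raw UMI counts. The file headers name Cell Ranger 5.0.1, and the submitters' processing notes name mm10. The 9 genes and all lists were chosen with earlier results of these data known.

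Cells with at least 200 genes and at most 20% mitochondrial UMIs were kept (1840 of 1855, 2184 of 2241, and 4978 of 5629 barcodes). The highest Scrublet scores (0.8% of cells per 1000 cells) were removed as doublets, 27, 38, and 198 cells. Cells were clustered with scanpy 1.11.5 and leidenalg 0.10.2 (resolution 0.5, 2000 variable genes without the 9 genes and their lists, 30 components, 15 for gated cells) and called X-like only from fixed markers. Counts were summed per group, with exact Poisson intervals for levels, Clopper-Pearson intervals for shares, and an exact binomial interval for ratios (scipy 1.17.1, 95%). A group at 0 was set to a floor of 3 counts in ratios. Genes named are the 9, the list genes, the 3 most similar genes to each, and the leading genes of gated clusters, some of which are not reported here. On simulated counts, 97.0% of changed genes were called in the gate comparison (15272 genes) and 76.6% in the tenocyte-like comparison (12331 genes), with 0.322% and 1.17% of unchanged genes. The simulated counts had counting error only, as the intervals assume, without clumping in single cells. The planted changes were all larger than the 2-fold limit. These shares therefore check the calculation and are not error rates for the real counts. Alternatives covered cell filters, doublets, gate, clustering, thinning, weighting, fold, and the UMI minimum.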

Additional observations from a re-analysis of the deposited data

How the results depend on the processing

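No paired analysis was possible because each site had 1 library. In all, 15 planned settings and 6 chosen after seeing the data were run, not all of which apply to each result. The number of the 9 genes higher in collagen-gated cells stayed between 6 and 7 over 16 settings, and the number higher in tenocyte-like cells between 4 and 6 over 15, with 27 to 40 cells in the tenocyte-like group. No gene called higher in the main setting reversed direction in another. Changes of sign in genes without a call in the main setting were not counted as reversals. Of the values recomputed, counts included, 3 of 160 for the gate comparison gained a call. For the tenocyte-like comparison, 2 of 150 gained a call and 5 of the 150 lost one. In gated cells *Sox9* passed 2-fold with every cell weighted equally (log2 ratio 1.66) and without the keratinocyte-like and muscle-like clusters (2.81), and *Runx2* at a 1.5-fold limit. The setting without those clusters was chosen after seeing the data, and they were the clusters highest for *Sox9*. With every cell weighted equally no interval was calculated, so calls in that setting rested on the ratio alone. In tenocyte-like cells *Sox9* lost its call in 4 settings, *Mkx* was too sparse for a minimum of 100 UMIs, *Twist1* gained one at 1.5-fold, and *Prrx1* was lower (−1.12) when the cells were named one by one (27 cells). Thinning to 2000 or 10000 UMIs moved 16 of 18 shares of cells, by construction. With 1 library per site, differences between animals cannot be seen, and genes under 20 UMIs over both groups were not compared.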

Other observations

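A pair of small groups of tendon cells carried several of the 9 genes. A cluster of 14 cells led by *Sfrp5*, *Msln*, and *Lypd2*, of which 9 were collagen-gated, held *Prrx1* at 248 CPM (85 UMIs), *Twist1* at 75.9 (26 UMIs), *Sox9* at 67.1 (23 UMIs), and *Mkx* at 8.75 (3 UMIs), with 0 UMIs of *Scx*, *Tnmd*, and *Acan*. The 16 gated cells led by *Retnlg* held summed neutrophil markers at 4066 CPM beside summed tenocyte markers at 2017, with *Prrx1* at 301, *Acan* at 33.6 (21 UMIs), and *Scx* at 20.8 (13 UMIs). The part that doublets or free leukocyte RNA play in this group was not tested, and the count of the 9 genes higher in gated cells was 6 with and without it.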
